A study of Mus musculus with 7 samples.

Results

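The genes described here build and shape mitochondria: they encode the machines that import proteins into the organelle, the proteins that fuse, divide and fold its membranes, and regulators of its biogenesis. They were chosen by symbol from the 31531 genes of the deposited table, as all Tomm and Timm genes followed by a number, without pseudogenes, together with *Mfn1*, *Mfn2*, *Opa1*, *Dnm1l*, *Fis1*, *Mff*, *Tfam*, *Ppargc1a*, *Phb*, *Phb2*, *Immt* and *Chchd3*. The rule found 35 genes, of which 34 are protein-coding and 1, *Tomm6os*, is a long noncoding RNA that matched by its name. RNA was sequenced from muscle fibers of fetuses at embryonic day 17.5, with 4 WT libraries (WT1 to WT4) and 3 from homozygous dyW fetuses (dyW1 to dyW3). The dyW allele disrupts *Lama2*, which encodes the α2 chain of laminin, a basement membrane protein around muscle fibers, and the mouse serves as a model of LAMA2-CMD, a congenital muscular dystrophy. Fetuses of both groups came from crosses of heterozygous parents on the C57BL/6 background and received no treatment, and their fibers were freed from the epaxial muscles by enzymatic digestion and held back on a strainer. The study asks whether mitochondria are affected by the loss of *Lama2*, and the comparison of the genotypes bears on the RNA side of that question.

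Nearly all mitochondrial proteins are made in the cytosol and cross the outer membrane through the TOM complex, in which receptors pass precursors to the channel formed by TOM40. The TIM23 complex then draws precursors with a cleavable signal into the matrix or inner membrane, whereas small Tim chaperones and the TIM22 complex insert carrier proteins. Mitofusins and OPA1 fuse the outer and inner membranes, DRP1 (encoded by *Dnm1l*) divides the organelle at sites marked by MFF and FIS1, and the MICOS complex and prohibitins hold the cristae in shape. In skeletal muscle, PGC-1α (encoded by *Ppargc1a*) drives the biogenesis of mitochondria, and TFAM packs their DNA and activates its transcription.

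*Lama2*, the targeted gene, was at 90.6, 111, 105 and 107 normalized counts in WT1 to WT4 and 4.29, 6.07 and 139.7 in dyW1 to dyW3. The library labelled dyW3 thus lay above every WT library, and dyW1 and dyW2 lay below all of them, with a log2 fold change of −2.58 ± 1.10 (SE, adjusted p = 0.103 with limma) over the groups. Against the level on the receptor genes described below, its WT reads were 1.19 times the predicted number with the length of all exons (0.925 to 1.62 over the WT libraries) and 2.06 times with the canonical transcript (1.60 to 2.85), so how far its WT value stands above theirs depends on the length used. In dyW3, its 286 reads were 14.7 times the predicted number with all exons. Gene counts came to 470804 to 2220813 reads per WT library and 3663905 to 18297106 per dyW library, of which the 35 genes together had 295 to 1707 and 6349 to 54032. A WT library therefore had a median of 5 to 35 reads per gene of the set, against 164 to 976 in a dyW library. Markers of the labelled cell type varied widely: the sum of 8 myofiber genes was 2255, 17685, 67477 and 13206 normalized counts in WT1 to WT4 and 22.2, 6937 and 4158 in dyW1 to dyW3, with *Ckm*, *Des*, *Myh3*, *Myh8* and *Tnnc2* at 0 in dyW1. The sum of 7 fibroblast markers was 4174 to 14747 in WT and 21951 to 32625 in dyW, and that of 5 cartilage markers was 436239 in WT1 and at most 8950 elsewhere. None of the 8 myofiber markers and 2 of the 7 fibroblast markers passed the test used below, both of the latter higher in dyW, and 1 marker each of cartilage, epidermis, Schwann and neural cells and smooth muscle was called lower. In dyW1, Col1a1 and Col1a2 made up most of the fibroblast sum, at 8467 and 12046, while *Col3a1* at 232 lay below every WT library and Dcn, Lum and Postn lay within the WT range. In such bulk samples, fewer cells of a type and less RNA per cell cannot be told apart, and the part of these cells, of the depth and of the RNA that each library holds in the results below was not tested.

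A gene is termed called where limma gave an adjusted p under 0.05 and an absolute log2 fold change over 1.5 between the groups. The fold change is that of log2(normalized count + 1), dyW minus WT, which understates the change of genes with low counts. A normalized count is the number of reads on a gene divided by the size factor of its library. Of the 35 genes, 34 had a mean of at least 5 normalized counts and were tested, among 25791 genes in all. *Tomm6os*, at 5.33, 2.70, 0 and 0 normalized counts in WT1 to WT4 and 0.682, 3.04 and 0 in dyW1 to dyW3, was not.

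In dyW fibers, 1 of the 34 genes rose, the import receptor gene *Tomm70a*, and 2 were called lower, the channel gene *Tomm40* and its paralog *Tomm40l*, whose WT values cannot be told apart from a background level described below. Over all tested genes, 1.0% were called higher and 29.6% were called lower, and the median log2 fold change of all tested genes was −1.99. The 34 genes had a median of 0.60, with 24 above 0 and 10 below. In the same fit, among genes with a mean of at least 50 normalized counts, 23 of the set had a median of 0.94, against 0.20 over 6111 genes. Of these 23, *Tomm70a* was called higher and *Tomm40* lower, where 3.98% and 5.09% of the 6111 genes were called higher and lower. This mean was taken over both groups, so a gene could pass through 1 group alone. *Tomm20*, *Timm22*, *Timm8b*, *Timm21* and *Opa1* had WT means under 50 and passed through dyW, all with a positive fold change. *Tomm40* and *Timm50* had dyW means under 50 and passed through WT, both with a negative one. The filter thus depends on the difference between the groups, and no conclusion is drawn from these medians.

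Which genes were called differed with the library left out, while the log2 fold changes stayed between 1.39 and 1.75 for *Tomm70a*, −3.58 and −1.97 for *Tomm40* and −3.65 and −2.43 for *Tomm40l*. Without dyW3, the dyW library with *Lama2* above every WT library, *Tomm40* alone was called (lower), and without dyW1, in which 5 myofiber markers were at 0, *Tomm20* and *Timm22* were called higher and *Tomm40* and *Tomm40l* lower. Without WT1 and dyW1 together, the libraries with the lowest sums of myofiber markers, *Tomm20* and *Timm22* were called higher and *Tomm40l* lower, a comparison added after seeing the data. Without WT3, *Tomm70a*, *Tomm20* and *Dnm1l* were called higher and none lower, and without dyW2, *Tomm40* and *Timm50* were called lower and none higher. Without WT1, WT2 or WT4, none of the genes was called.

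The groups did not overlap for 8 of the 34 genes. Every dyW library lay above every WT library for *Tomm70a*, *Tomm20*, *Timm22* and *Dnm1l*, and below for *Tomm40*, *Tomm40l*, *Timm50* and *Immt*. Over all tested genes, 3.28% lay wholly above and 31.5% wholly below. Over those with a mean of at least 50, where all but *Tomm40l* belong, the shares were 12.2% and 6.81%. *Tomm20* and *Timm22* belong there only through dyW, and *Tomm40* and *Timm50* only through WT. For each of the 8 genes, permuting the libraries exactly (two-sided, on normalized counts) gave p = 0.0571, the smallest value that the 35 assignments of 4 and 3 libraries allow.

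**Figure D1:**
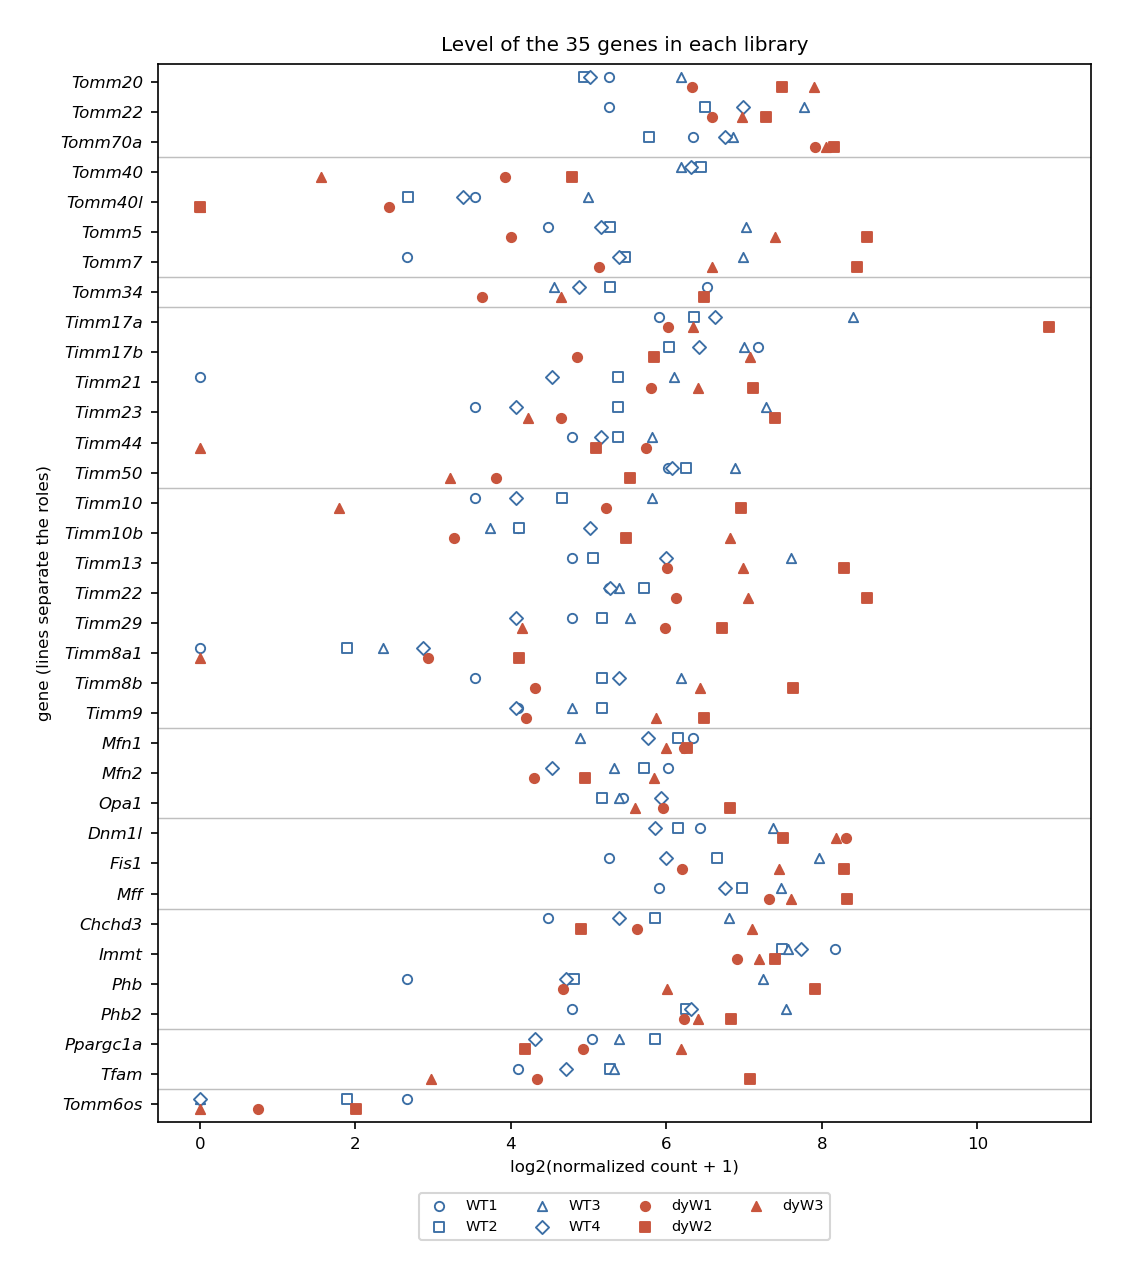
Level of each of the 35 genes in each library, as log2(normalized count + 1), with open symbols for the 4 WT and filled symbols for the 3 dyW libraries and lines between the roles. The filled symbols of Tomm20, Tomm70a, Timm22 and Dnm1l lie to the right of all open ones, those of Tomm40, Tomm40l, Timm50 and Immt to the left, and in most other rows WT3 and dyW2 lie farthest right in their groups.

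Motifs of regulators that are known to act on nuclear genes for mitochondrial proteins were searched in the 250 bases before the canonical GENCODE start of 34 of the genes and of 18818 coding genes, on both strands. The GABPA core CCGGAAG or CTTCCGG stood before *Chchd3*, *Immt*, *Mfn1*, *Phb2*, *Timm23*, *Timm29* and *Tomm22*, which is 20.6% of the 34 genes against 7.35% of all. The NRF1 core GCATGCGC or GCGCATGC stood before *Opa1* and *Timm13*, 5.88% against 2.57%, and the estrogen-related receptor core TCAAGGTCA or TGACCTTGA before *Timm8b*, 2.94% against 0.377%. In *Opa1* the NRF1 core and in *Tomm22* the GABPA core matched on both strands in overlapping letters. A match is a description of the letters and not a binding site. The YY1 core AAGATGGC or GCCATCTT stood before none of the 34 and before 1.41% of all.

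The windows of 4 genes are printed 5′ to 3′ as the reference genome reads (GRCm39), with GABPA cores in capitals: *Tomm70a*, *Tomm20* and *Dnm1l*, which lay higher in every dyW library and held none of the 4 motifs, and *Chchd3*, whose single core starts 114 bases before the start site. No annotated exon lies in these windows, which are chr16:56941542-56941791 (plus strand) for *Tomm70a*, chr8:127672691-127672940 (minus strand) for *Tomm20*, chr16:16176905-16177154 (minus strand) for *Dnm1l* and chr6:33037212-33037461 (minus strand) for *Chchd3*.
Tomm70a: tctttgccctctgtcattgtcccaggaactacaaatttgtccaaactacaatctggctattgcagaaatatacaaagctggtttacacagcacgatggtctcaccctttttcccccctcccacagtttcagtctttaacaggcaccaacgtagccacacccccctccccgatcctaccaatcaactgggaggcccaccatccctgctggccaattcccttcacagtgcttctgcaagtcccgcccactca
Tomm20: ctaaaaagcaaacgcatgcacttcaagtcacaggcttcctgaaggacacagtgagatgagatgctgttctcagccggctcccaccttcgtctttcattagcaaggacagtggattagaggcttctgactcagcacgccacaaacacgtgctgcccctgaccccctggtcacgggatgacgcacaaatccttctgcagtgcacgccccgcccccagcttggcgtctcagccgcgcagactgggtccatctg
Dnm1l: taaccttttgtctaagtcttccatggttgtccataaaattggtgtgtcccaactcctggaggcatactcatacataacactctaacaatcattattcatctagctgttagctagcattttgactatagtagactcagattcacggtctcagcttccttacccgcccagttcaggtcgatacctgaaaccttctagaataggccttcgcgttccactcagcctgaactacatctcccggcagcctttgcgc
Chchd3: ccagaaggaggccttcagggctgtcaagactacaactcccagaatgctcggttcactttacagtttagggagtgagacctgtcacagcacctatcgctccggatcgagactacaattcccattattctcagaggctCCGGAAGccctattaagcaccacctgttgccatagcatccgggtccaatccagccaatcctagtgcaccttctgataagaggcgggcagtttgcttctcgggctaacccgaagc

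Of the 3 receptor genes of the TOM complex, *Tomm70a* rose and the others did not pass the test. *Tomm70a* (chr16:56941792-56977068, GRCm39), whose product TOM70 receives carrier precursors together with cytosolic chaperones, had 80.0, 53.9, 115 and 107 normalized counts in WT1 to WT4 and 239, 285 and 264 in dyW1 to dyW3. The 3 dyW libraries lay close together, and the lowest of them was 2.08 times the highest WT library. The log2 fold change of *Tomm70a* was 1.61 ± 0.524 (SE, adjusted p = 0.0457) with limma. This call was lost when any of 6 libraries was left out (adjusted p of 0.0689, 0.127, 0.0809, 0.0688, 0.0944 and 0.0677 without WT1, WT2, WT4, dyW1, dyW2 and dyW3), while the fold change stayed between 1.39 and 1.75.

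*Tomm20* (chr8:127657416-127672690), which encodes the receptor that first binds cleavable presequences, had 37.3, 29.7, 71.8 and 31.5 normalized counts in WT1 to WT4 and 79.4, 178 and 238 in dyW1 to dyW3. All dyW libraries exceeded the highest WT library, WT3, by a margin that was small for dyW1. The log2 fold change of 1.89 ± 0.649 (SE, adjusted p = 0.0560) was not called, although it was without WT3 (2.17, adjusted p = 0.0419) and without dyW1 (2.34, adjusted p = 0.0296). *Tomm22*, whose product is the central receptor and organizer of the complex, had 37.3, 89.0, 217 and 126 normalized counts in WT1 to WT4 and 95.5, 154 and 125 in dyW1 to dyW3. Its groups overlapped throughout, and its log2 fold change of 0.32 ± 0.690 (SE, adjusted p = 0.748) turned below 0 under 2 of the 4 other scalings described below.

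Of the channel genes, both were called lower, *Tomm40l* from pooled WT reads under the level of the receptor genes described below. *Tomm40* (chr7:19435238-19449593), which encodes the protein-conducting pore, had 80.0, 86.3, 71.8 and 78.7 normalized counts in WT1 to WT4 and 14.1, 26.7 and 1.95 in dyW1 to dyW3. The WT libraries were nearly equal, and the highest dyW library held 37.2% of the lowest of them, although dyW3 held only 4 reads. The log2 fold change of *Tomm40* was −2.90 ± 0.832 (SE, adjusted p = 0.0271) with limma, lower than the median of all genes, and without WT1, WT2, WT3 or WT4 it was −2.89, −2.86, −2.94 and −2.90 with an adjusted p of 0.0638, 0.0845, 0.0601 and 0.0806, so that the call was lost at nearly the same fold change. It was −3.15 without dyW1, −3.58 without dyW2 and −1.97 without dyW3, with an adjusted p of 0.0354, 0.0201 and 0.0277, and was called in each case. *Tomm40l* (chr1:171043578-171050277), a paralog of the pore gene, had 10.7, 5.39, 30.8 and 9.44 normalized counts in WT1 to WT4 and 4.38, 0 and 0 in dyW1 to dyW3. It rested on 2 to 15 reads per WT library, which were 0.568 times the number that receptor genes predict with all exons and 0.649 times with the canonical transcript. That level was itself 0 in dyW1 and dyW2, so the lower values of *Tomm40l* cannot be told apart from the fall of that level. Its region overlaps those of Nr1i3 and Apoa2. Its log2 fold change was −2.84 ± 0.906 (SE, adjusted p = 0.0421), and the adjusted p was 0.0726, 0.0667, 0.0950, 0.132 and 0.0698 without WT1, WT2, WT4, dyW2 and dyW3, while without WT3 it lay under the filter on low counts. The strand setting of the counting is not given in the sources used here, so reads of *Tomm40l* and of its neighbours cannot be told apart. The regions of *Tomm70a*, *Tomm20*, *Timm22*, *Dnm1l*, *Tomm40* and *Immt* also overlap those of other annotated genes, and the same limit holds where they do.

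Dividing a library by another size factor leaves the ratio of 2 genes within it unchanged, whereas quantile normalization alters it. The ratio of *Tomm70a* to *Tomm40* was 1.0, 0.625, 1.60 and 1.36 in WT1 to WT4 and 16.9, 10.7 and 135 in dyW1 to dyW3. That of *Tomm20* to *Tomm40* was 0.467, 0.344, 1.0 and 0.40 in WT1 to WT4 and 5.62, 6.67 and 122 in dyW1 to dyW3. That of *Tomm22* to *Tomm40* was 0.467, 1.03, 3.03 and 1.60 in WT1 to WT4 and 6.76, 5.79 and 63.8 in dyW1 to dyW3. All 3 receptor genes thus stood higher against the pore gene in every dyW library than in any WT library. The dyW3 ratios have no reliable size, since *Tomm40* had 4 reads there, 0.772 times the number that the receptor genes described below predict with all exons and 2.03 times with the canonical transcript. These ratios were chosen after the values were seen and were not tested.

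The small subunits TOM5 and TOM7, which help to assemble and stabilize the complex, and the cytosolic factor TOM34 followed neither pattern. *Tomm5* had 21.3, 37.8, 129 and 34.6 normalized counts in WT1 to WT4 and 15.0, 382 and 168 in dyW1 to dyW3, and *Tomm7* had 5.33, 43.1, 125 and 40.9 normalized counts in WT1 to WT4 and 34, 350.2 and 94.7 in dyW1 to dyW3. In both genes WT3 exceeded the other WT libraries and dyW1 lay within or below the WT range, and their log2 fold changes of 1.18 and 1.60 were not called (adjusted p = 0.449 and 0.310). They were 0.22 and 0.73 without dyW2 and 2.51 and 2.39 without dyW1. *Tomm34*, which encodes a cochaperone of precursors in the cytosol, ranged from 22.6 to 90.6 in WT and from 11.4 to 88.8 in dyW, with a log2 fold change of −0.39.

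**Figure D2:**
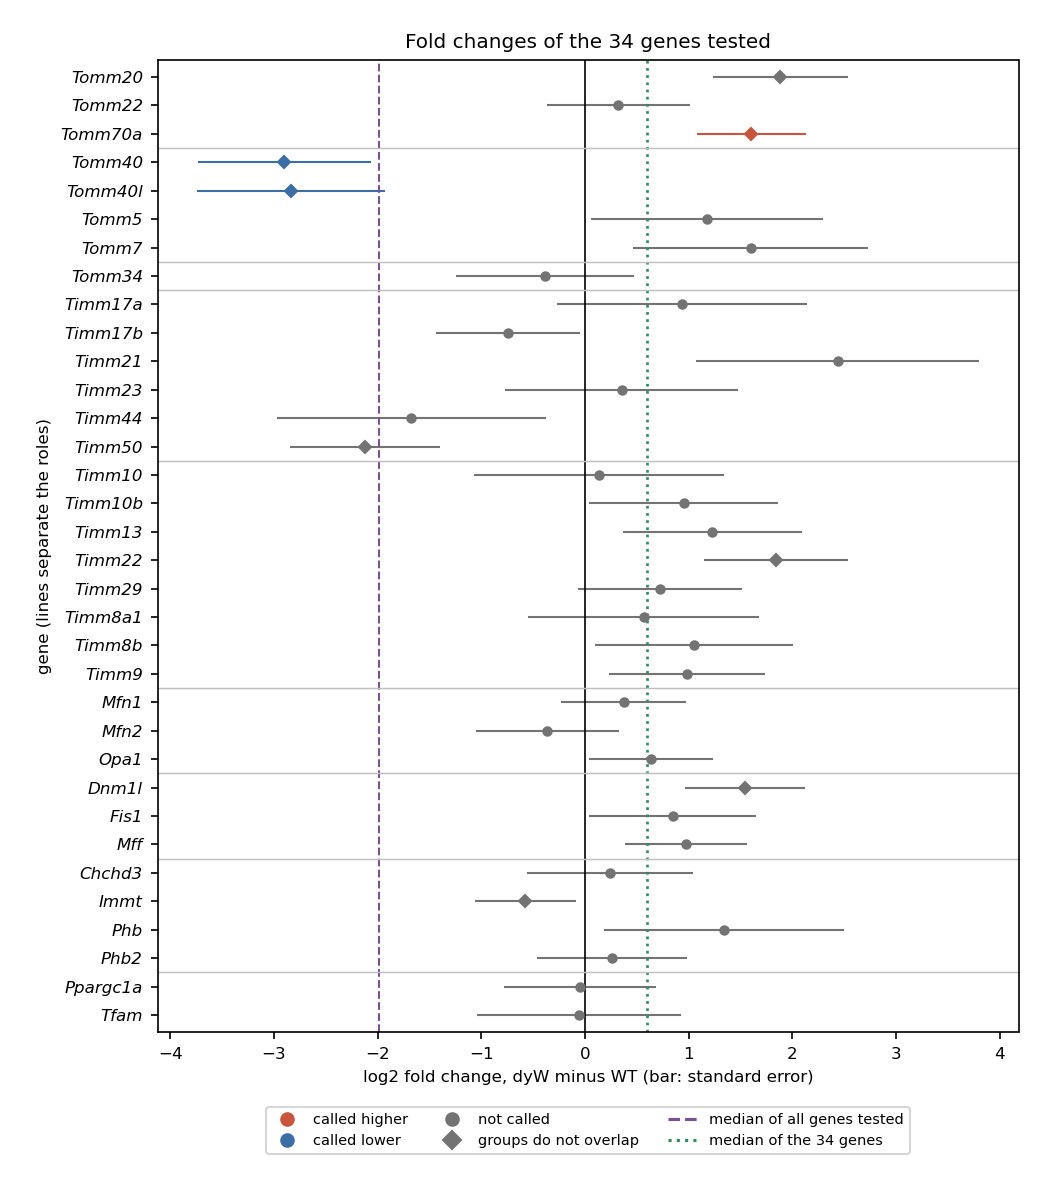
Log2 fold change (dyW minus WT) of the 34 tested genes with its standard error, grouped by role; red and blue mark genes called higher and lower, diamonds mark genes whose groups did not overlap, and lines mark the medians of the 34 genes (0.60) and of all tested genes (−1.99). Tomm70a is the only red and Tomm40 and Tomm40l the only blue points.

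Genes of the TIM23 complex showed no shared direction: 3 of 6 had a positive and 3 a negative log2 fold change, with a median of −0.19, and none was called. *Timm50* (chr7:28004699-28011516), which encodes the receptor that takes presequences from the TOM complex, had 64.0, 75.5, 117 and 66.1 normalized counts in WT1 to WT4 and 13.1, 45.2 and 8.30 in dyW1 to dyW3. Every dyW library was below every WT library, and the log2 fold change of −2.12 ± 0.726 (SE, adjusted p = 0.0551) missed the call but passed without dyW2 (−2.79, adjusted p = 0.0224). *Timm23*, whose product forms the voltage-sensitive core of the translocase, had 10.7, 40.5, 154 and 15.7 normalized counts in WT1 to WT4 and 24.0, 168 and 17.6 in dyW1 to dyW3. The values of WT3 and dyW2 were far above the rest of their groups, and the log2 fold change of 0.35 had an adjusted p of 0.831.

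*Timm17a* and *Timm17b* encode paralogous partners of TIM23 in the channel. *Timm17a* had 58.6, 80.9, 336 and 97.5 normalized counts in WT1 to WT4 and 63.6, 1935 and 80.1 in dyW1 to dyW3, and its log2 fold change of 0.94 rested on dyW2, without which it was −0.64. *Timm17b* ranged from 64.7 to 143.9 in WT and from 27.8 to 133.8 in dyW, with a log2 fold change of −0.74. *Timm44*, whose product ties the motor chaperone to the translocase, had 26.7, 40.5, 55.4 and 34.6 normalized counts in WT1 to WT4 and 52.4, 33.1 and 0 in dyW1 to dyW3. It was at 0 in dyW3, where 0 reads allow up to 1.46 normalized counts for counting error only, and its log2 fold change of −1.67 became 0.13 without that library. *Timm21*, which links the TOM and TIM23 complexes, ranged from 0 in WT1 to 67.7 in WT and from 54.6 to 137.0 in dyW, and its log2 fold change of 2.44 had the widest standard error of the set, 1.37. In WT1 its 0 reads allow up to 16.0 normalized counts, and without WT1 the fold change was 1.10.

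All 8 genes of the TIM22 complex and the small Tim chaperones had a positive log2 fold change, from 0.13 for *Timm10* to 1.84 for *Timm22*, with a median of 0.97 and no call. The direction of *Timm10* turned under the ratios over abundant genes, and those of the other 7 did not turn under any of the 4 other scalings. Leaving out single libraries turned *Timm10* in 4 of 7 cases (−1.02 to 1.57) and *Timm8a1* without WT1 (−0.023), and both were negative without WT1 and dyW1 together, at −0.48 and −0.32. *Timm22* (chr11:76297778-76309269), which encodes the carrier translocase itself, had 37.3, 51.2, 41.0 and 37.8 normalized counts in WT1 to WT4 and 68.8, 382 and 131 in dyW1 to dyW3. The WT libraries kept within 37.3 to 51.2 and all dyW libraries were higher, with dyW2 farthest above. The log2 fold change of 1.84 ± 0.692 (SE, adjusted p = 0.0714) was called without dyW1 (2.41, adjusted p = 0.0291) and not in the full comparison, and without dyW2 it was 1.18 (adjusted p = 0.198). *Timm29*, a subunit of the same complex, had a log2 fold change of 0.72, which was 0.17 without dyW2 and 1.46 without dyW3.

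The small Tims escort hydrophobic precursors across the space between the membranes as rings of paired subunits. Of the TIM9 and TIM10 pair, *Timm9* ranged from 15.7 to 35.1 in WT and from 17.3 to 88.5 in dyW, and *Timm10* from 10.7 to 55.4 and from 2.44 to 123. Of the TIM8 and TIM13 pair, *Timm13* ranged from 26.7 to 192.8 in WT and from 63.3 to 310.2 in dyW, whereas *Timm8a1* stayed between 0 and 6.29 in WT and between 0 and 16.2 in dyW. *Timm8a1* rested on 0, 1, 2 and 2 reads in WT1 to WT4. These were 0.128 times the number that the receptor genes described below predict with all exons and 0.122 times with the canonical transcript. For *Timm9* these ratios were 0.808 and 2.09. The groups of these 4 genes overlapped in each case, as did those of *Timm8b* and *Timm10b*, with log2 fold changes of 1.05 and 0.95. Leaving out 1 library moved *Timm8b* to between 0.30 (without dyW2) and 1.96 (without dyW1), *Timm10b* to between 0.14 (without dyW3) and 1.91 (without dyW1), *Timm9* to between 0.50 (without dyW2) and 1.64 (without dyW1) and *Timm13* to between 0.64 (without dyW2) and 1.81 (without WT3).

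Among the genes of membrane dynamics, the 3 of fission had a median log2 fold change of 0.97 and the 3 of fusion one of 0.37, a difference that was not tested, and none of the 6 was called. *Dnm1l* (chr16:16128677-16176904), which encodes the dynamin-related GTPase that constricts the organelle, had 85.3, 70.1, 164 and 56.6 normalized counts in WT1 to WT4 and 316, 179 and 288 in dyW1 to dyW3. Each dyW library lay above the highest WT library, WT3, dyW2 by the smallest margin. The log2 fold change of 1.54 ± 0.579 (SE, adjusted p = 0.0715) was not called, but was without WT3 (1.85, adjusted p = 0.0320). *Mff*, an outer membrane receptor for DRP1, had 58.6, 124, 176 and 107 normalized counts in WT1 to WT4 and 158, 319 and 193 in dyW1 to dyW3, with an overlap between WT3 and dyW1 only. *Fis1*, another outer membrane factor of fission, had 37.3, 99.8, 248 and 62.9 normalized counts in WT1 to WT4 and 72.7, 312 and 174 in dyW1 to dyW3. Its groups overlapped widely, and the log2 fold changes of 0.97 and 0.85 had adjusted p of 0.233 and 0.446.

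*Mfn1*, a mitofusin of the outer membrane, had 80.0, 70.1, 28.7 and 53.5 normalized counts in WT1 to WT4 and 73.9, 75.6 and 63.0 in dyW1 to dyW3. *Mfn2*, which also tethers mitochondria to the endoplasmic reticulum, had 64.0, 51.2, 39.0 and 22.0 normalized counts in WT1 to WT4 and 18.7, 30.1 and 56.2 in dyW1 to dyW3. *Opa1*, the fusion GTPase of the inner membrane, had 42.6, 35.1, 41.0 and 59.8 normalized counts in WT1 to WT4 and 60.9, 112 and 47.4 in dyW1 to dyW3. For each of these 3 genes the groups overlapped and the change was smaller than or near its standard error, at 0.37 ± 0.602 (SE, adjusted p = 0.664), −0.36 ± 0.689 (SE, adjusted p = 0.715) and 0.64 ± 0.600 (SE, adjusted p = 0.443). The direction of *Mfn2* turned under 3 of the 4 other scalings and that of *Mfn1* under 1 of them.

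Set against fusion genes within each library, the ratio of *Dnm1l* to *Mfn2* was 1.33, 1.37, 4.21 and 2.57 in WT1 to WT4 and 16.9, 5.95 and 5.13 in dyW1 to dyW3, higher in every dyW than in any WT library. Its ratio to *Mfn1* was 1.07, 1.0, 5.71 and 1.06 in WT1 to WT4 and 4.27, 2.37 and 4.57 in dyW1 to dyW3. Its ratio to *Opa1* was 2.0, 2.0, 4.0 and 0.947 in WT1 to WT4 and 5.18, 1.60 and 6.08 in dyW1 to dyW3. For the last 2 ratios the groups overlapped, with WT3 above at least 1 dyW library, and no test was made. The ratios were chosen after the values were seen, and *Mff* and *Fis1* were not set against fusion genes. With all exons, the WT reads of *Mfn1*, *Mfn2* and *Opa1* were 0.792, 0.80 and 0.959 times the number that the receptor genes described below predict. With the canonical transcript they were 1.16, 1.70 and 1.33 times that number. That level was 0 in dyW1 and dyW2, and its part in the WT ratios was not tested.

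Of the genes of cristae and prohibitins, *Immt* (chr6:71808260-71854372), which encodes MIC60, the central subunit of MICOS, had 288, 178, 189 and 211 normalized counts in WT1 to WT4 and 119, 167 and 146 in dyW1 to dyW3. Every dyW library lay below every WT library, dyW2 by a small margin. The log2 fold change was −0.57 ± 0.485 (SE, adjusted p = 0.394), and it became 0.57 with every library brought to one total and 0.77 with voom. *Chchd3*, whose product MIC19 joins MIC60 to the sorting complex of the outer membrane, had 21.3, 56.6, 111 and 40.9 normalized counts in WT1 to WT4 and 48.1, 29.0 and 137 in dyW1 to dyW3. The ranges of both groups overlapped almost throughout, with a log2 fold change of 0.25.

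The prohibitins form ring-shaped scaffolds in the inner membrane and chaperone new respiratory subunits. *Phb* had 5.33, 27.0, 149.7 and 25.2 normalized counts in WT1 to WT4 and 24.5, 239 and 63.5 in dyW1 to dyW3, and its partner *Phb2* had 26.7, 75.5, 185 and 78.7 normalized counts in WT1 to WT4 and 73.9, 113 and 84.0 in dyW1 to dyW3. The lowest value of each was in WT1, WT3 exceeded dyW1 and dyW3 in both genes, and the log2 fold changes of 1.34 and 0.27 had adjusted p of 0.404 and 0.802. That of *Phb* was 0.49 without dyW2 and 2.14 without WT3.

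The regulators of biogenesis did not differ by the test. *Ppargc1a* had 32.0, 56.6, 41.0 and 18.9 normalized counts in WT1 to WT4 and 29.4, 17.2 and 71.8 in dyW1 to dyW3, and *Tfam* had 16.0, 37.8, 39.0 and 25.2 normalized counts in WT1 to WT4 and 19.2, 133 and 6.84 in dyW1 to dyW3. Their highest and lowest values were both in dyW libraries, so that the dyW range enclosed that of WT. The log2 fold changes were −0.05 ± 0.733 (SE, adjusted p = 0.964) and −0.06 ± 0.988 (SE, adjusted p = 0.97), which leave room for a change in either direction.

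Within each group, many of the 34 genes were high in the same library. WT3 held the highest WT value for 22 of them and dyW2 the highest dyW value for 25, while WT1 held the lowest WT value for 19 and dyW1 the lowest dyW value for 20. The summed level of the 35 genes was 1573, 1842, 3502 and 1765 normalized counts in WT1 to WT4 and 2025, 6834 and 3101 in dyW1 to dyW3. WT3 and dyW2 also had the highest and WT1 and dyW1 the lowest sum of myofiber markers in their groups. As a share of all counts of a library, the set took 0.0627%, 0.0463%, 0.0769% and 0.0318% in WT and 0.145%, 0.295% and 0.173% in dyW. The 10 most abundant genes took 43.3% to 77.3% of the counts in WT and 16.4% to 37.6% in dyW, and the sum of 5 erythroid markers ran from 5.33 to 291206 normalized counts in WT and from 14.8 to 171866 in dyW. The part of these genes in the shares, and in the calls made with one total for every library, was not tested.

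The scaling of the libraries was varied, since it bears on each direction. The median log2 fold change of all genes was −1.24 with every library brought to one total, −0.15 after quantile normalization, −2.25 with ratios taken over abundant genes only and −1.70 with voom on the recovered reads. The median of the 34 genes was 1.64, 0.77, 0.26 and 1.79 in the same order, above that of all genes each time. With the same total, *Tomm70a*, *Tomm20*, *Timm22*, *Dnm1l* and *Mff* were called higher and none lower. With ratios over abundant genes, *Tomm40*, *Tomm40l* and *Timm50* were called lower and none higher, and after quantile normalization none of the 34 was called. With voom, *Tomm70a* was called higher and *Tomm40l* lower. *Tomm20*, *Tomm70a*, *Timm22* and *Dnm1l* kept a positive fold change and *Tomm40*, *Tomm40l* and *Timm50* a negative one under all 4, whereas *Immt* turned positive under 2, the same total and voom.

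**Figure D3:**
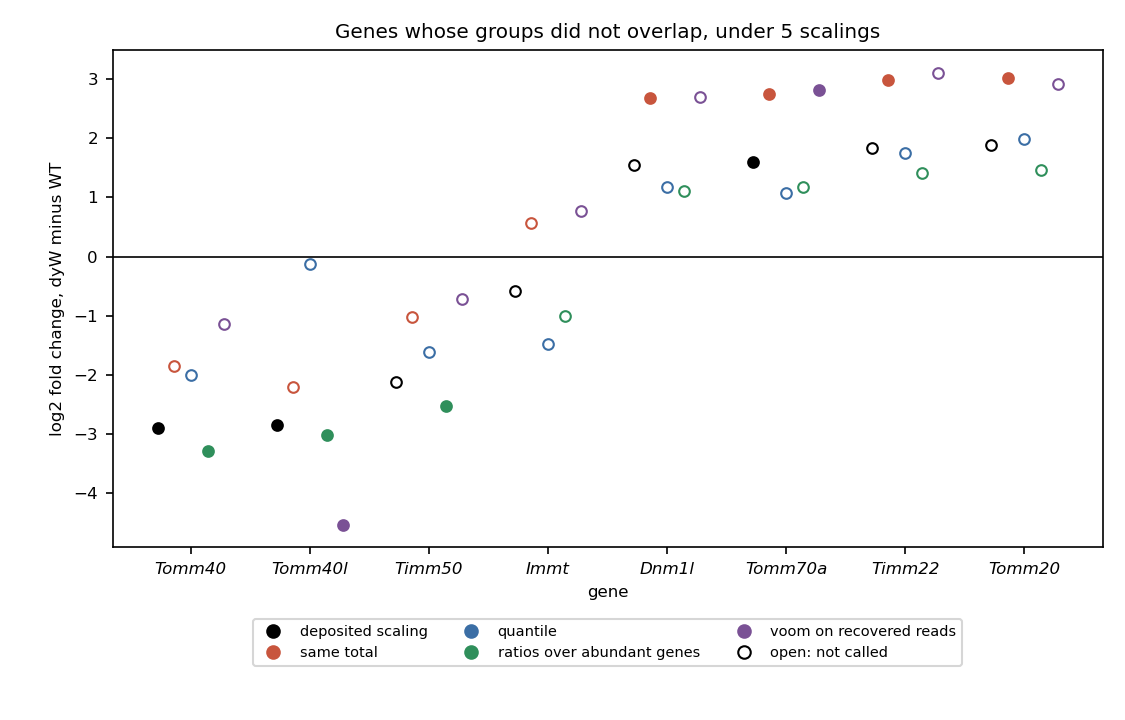
Log2 fold change (dyW minus WT) of the 8 genes whose groups did not overlap, under the deposited scaling and 4 others, with filled points for genes called in that fit. The 4 genes on the right stay above 0 and Tomm40, Tomm40l and Timm50 below 0 throughout, while Immt lies on both sides; which of them is called differs from one scaling to the next.

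A level of reads shared by genes that muscle should not use was measured with 1269 odorant and vomeronasal receptor genes, which serve smell and pheromone sensing. Their median was 0.641, 2.49, 1.76 and 1.86 reads per kb of exon in WT1 to WT4 and 0, 0 and 1.09 in dyW1 to dyW3. The reads of each gene in the WT libraries were divided by the number that this level predicts for the length of all its exons. The 35 genes had a median ratio of 2.04, from 0.101 for *Tomm6os* to 10.9 for *Tomm5*, and 17 of them were under 2 and 7 under 1. With the exons of the canonical transcript alone, 13 were under 2 and 3 under 1, a choice made after seeing the data.

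Several genes described above were close to this level in WT. The ratio was 1.70 for *Tomm70a*, 1.27 for *Tomm20*, 1.61 for *Timm22*, 0.568 for *Tomm40l*, 1.11 for *Ppargc1a*, 0.792 for *Mfn1*, 0.80 for *Mfn2* and 0.959 for *Opa1*. It was higher for *Tomm40* at 3.34, *Timm50* at 5.72, *Immt* at 2.84 and *Dnm1l* at 2.85. With the canonical transcript, the first 8 ratios were 2.79, 1.75, 1.63, 0.649, 1.14, 1.16, 1.70 and 1.33, and the last 4 were 8.86, 10.7, 9.24 and 3.58. Where the ratio is near 1 with either length, the WT value of a gene cannot be told apart from the level on receptor genes. The source of the reads on receptor genes was not tested.

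**Figure D4:**
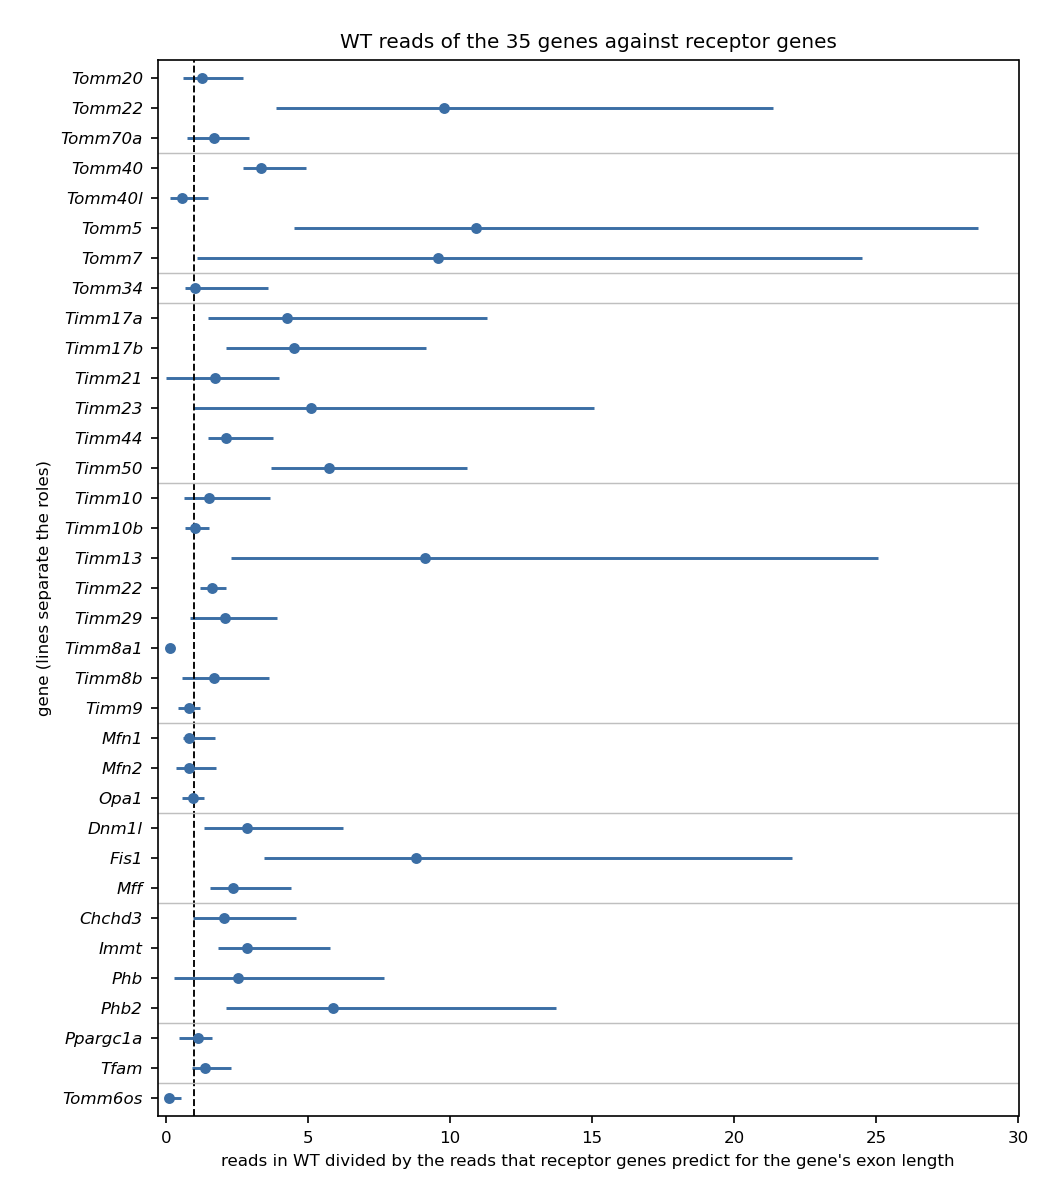
Reads of each of the 35 genes in the WT libraries divided by the reads that the median receptor gene predicts for the length of all exons; points pool the 4 WT libraries, bars run from the lowest to the highest of them, and the dashed line marks a ratio of 1. Pooled ratios run from 0.101 to 10.9, and the 3 fusion genes lie below 1 with this length.

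Levels were compared between genes per kb, and their order depended on the length used. With the exons of the canonical transcript, *Fis1* had the highest dyW mean, 237 ± 153 normalized counts per kb (SD, n = 3), before *Tomm5* at 225 ± 221 and *Tomm7* at 121 ± 127. With all annotated exons, which the receptor comparison also used, *Tomm5* was first at 151 ± 148, before *Tomm7* at 113 ± 119, while *Fis1* was at 59.8 ± 38.5. In WT, *Fis1* led with canonical exons at 143 ± 120 (SD, n = 4), and with all exons the highest means were *Tomm5* at 44.6 ± 39.6, *Tomm22* at 41.7 ± 27.0, *Tomm7* at 38.0 ± 36.0, *Timm13* at 37.0 ± 36.6 and *Fis1* at 36.0 ± 30.3. All of these were highest in WT3, so the SD holds a difference between libraries that they share. It does not measure the difference between genes within a library, and their order was not tested. *Tomm40l* had the lowest dyW mean of the coding genes by either length, 0.309 with canonical and 0.255 with all exons.

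The genes that work beside these proteins were read from 3 lists of known partners. Of 27 import partners (matrix and cytosolic chaperones, presequence proteases and the sorting and disulfide relay proteins), 1 was called higher and 2 were called lower, with a median log2 fold change of 0.02. These are 3.70% and 7.41% of the list, against 1.0% and 29.6% of all tested genes. Among tested genes with a mean of at least 50 normalized counts, 3.98% were called higher and 5.09% lower. The median gene had a mean of 68.5 normalized counts in this list, against 19.7 over all tested genes. That median was 50.5 for the partners of MICOS and dynamics and 30.7 for those of mitochondrial DNA and biogenesis. *Hsp90aa1*, the cytosolic chaperone that hands precursors to TOM70, had 197, 146, 261 and 94.4 normalized counts in WT1 to WT4 and 780.0, 899 and 941 in dyW1 to dyW3. Every dyW library lay above every WT library. Its log2 fold change of 2.41 ± 0.504 (SE, adjusted p = 0.00679) had the direction of *Tomm70a*. For *Hspa8*, another cytosolic chaperone of the list, the groups overlapped, with a log2 fold change of 0.03 ± 0.898 (SE, adjusted p = 0.984). A link between these genes was not tested. *Gfer*, the oxidase of the disulfide relay, and *Grpel2*, a nucleotide exchange factor of the matrix chaperone, had log2 fold changes of −3.95 ± 0.976 (SE, adjusted p = 0.0139) and −4.23 ± 1.07 (SE, adjusted p = 0.0151), both with every dyW library below every WT library.

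Of 29 measured partners of MICOS and membrane dynamics, out of 32 listed, 1 was called higher and 4 were called lower (3.45% and 13.8%, against 1.0% and 29.6% of all tested genes), with a median of −0.73. *Yme1l1*, the inner membrane protease that cleaves OPA1 and degrades small Tims, had 155, 72.8, 166 and 69.2 normalized counts in WT1 to WT4 and 372, 338 and 369 in dyW1 to dyW3. The lowest dyW library was 2.03 times the highest WT library, and the log2 fold change was 1.74 ± 0.547 (SE, adjusted p = 0.0396). The 4 lower genes were *Miga2* (mitoguardin, fusion; −3.80), *Mul1* (an outer membrane ubiquitin ligase; −3.09), *Letm1* (ion exchange; −2.71) and *Dnajc11* (a MICOS-associated protein; −2.11), with adjusted p from 0.011 to 0.030. Of 33 partners in mitochondrial DNA upkeep and biogenesis, none was called higher and 6 were called lower (18.2%, against 29.6% of all tested genes), with a median of −0.48. These were the coactivator gene *Ppargc1b* (−3.71), the receptors *Esrrb* (−4.24) and *Ppara* (−3.39), the mitochondrial RNA polymerase gene *Polrmt* (−2.52), the nuclease gene *Mgme1* (−3.70) and *Tfb1m*, an rRNA methyltransferase (−3.09). The WT reads of *Miga2*, *Ppargc1b*, *Ppara*, *Esrrb*, *Mul1*, *Letm1* and *Mgme1* were 0.525, 0.590, 0.697, 0.954, 1.01, 1.14 and 1.21 times those that receptor genes predict, a level that was 0 in dyW1 and dyW2. With the canonical transcript, these ratios were 1.76, 0.822, 1.22, 1.29, 1.86, 2.15 and 2.14. Of these 7 genes, *Ppargc1b*, *Ppara* and *Esrrb* were under 1 in at least 1 WT library with either length, and the other 4 were above 1 in every WT library with the canonical transcript. With all exons, the ratio was 1.45 for *Polrmt*, 1.46 for *Grpel2*, 1.75 for *Dnajc11*, 2.48 for *Tfb1m* and 2.89 for *Gfer*, and for the genes called higher 2.67 for *Yme1l1* and 7.98 for *Hsp90aa1*.

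The related families of the same organelle had similar medians. Of the 77 genes of mitochondrial ribosomal proteins, 76 were tested, with a median log2 fold change of 0.36, none called higher and 1 (1.32%) called lower. Of the 85 genes of nuclear oxidative phosphorylation subunits, 83 were tested, with a median of 0.63, close to the 0.60 of the import, dynamics and biogenesis genes, and none was called. Of all tested genes, 1.0% were called higher and 29.6% lower, and of those with a mean of at least 50, 3.98% and 5.09%. The median gene had a mean of 57.8 normalized counts in the ribosomal family and 181 among the oxidative phosphorylation subunits, against 19.7 over all tested genes.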

How the data were processed

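RNA of E17.5 muscle fibers from 4 WT and 3 dyW fetuses was made into SMART-seq2 libraries without molecular identifiers, so intervals and floors cover counting error only. After trimming with Cutadapt, the authors used RNA STAR against GRCm39, counted uniquely mapped reads per gene with FeatureCounts and divided them by 1 DESeq2 size factor per library. Tool versions, strand setting and annotation release are not given in the sources used here. The deposited values, recorded as a score because they are normalized counts with decimal commas, gave whole reads for 100% of values (tolerance 0.05 reads). The deposited fold changes and p-values of the authors' own comparison were not used. Groups follow the genotype in the labels. Genes with a mean of at least 5 were compared on log2(normalized count + 1) by a two-sided limma fit (version 3.58.1, R 4.3.3) with a mean-variance trend in eBayes and Benjamini-Hochberg adjustment, and single genes also by exact permutation tests. Coordinates and exon lengths came from GENCODE vM39 (GRCm39), which holds 99.2% of the identifiers. Whether the labels' separate samples came from separate litters is not given, so p-values measure the spread between these samples. The 35 genes, the lists of partners and markers and the thresholds were chosen with earlier results of these data known. Values in each library are given for genes called, genes whose groups did not overlap, the genes named in the rule, *Tomm20*, *Tomm40*, *Timm22*, *Timm23* and genes under the filter. Partners are named where called, and *Hspa8* was added to them. *Tomm5*, *Tomm7*, *Timm17a*, *Timm44* and *Tomm22* were added after their values were seen. Python 3.11.15, numpy 2.4.6, pandas 2.3.3 and matplotlib 3.10.9 were used. Alternatives were other pseudocounts, filters, scalings, thresholds, a replicate block, voom and leaving out libraries.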

Additional observations from a re-analysis of the deposited data

Results flagged for a closer look

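In 3 of the 34 genes, 1 WT library stood apart from the other 3 by Dixon's criterion at the 95% level. WT3 held 336 normalized counts of *Timm17a*, against 58.6 to 97.5 in the other WT libraries. It held 129 of *Tomm5*, against 21.3 to 37.8, and 149.7 of *Phb*, against 5.33 to 27.0. Chance flags about 1 in 20 groups, and the same library stood apart each time. WT3 also had the highest sum of myofiber markers. The groups of 3 dyW libraries were not tested in this way.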

How the results depend on the processing

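The median log2 fold change of the 34 genes kept its sign under all settings. It was 1.64 with every library brought to one total and 1.79 with voom, beside 0.60, and ran from 0.29 to 0.83 over the 7 libraries left out in turn. The number of these genes called higher was 1 and ran from 0 to 3 with 1 library left out (0 without WT1, WT2, WT4, dyW2 or dyW3, 3 without WT3 and 2 without dyW1), and it was 5 with the same total and 2 without WT1 and dyW1 together. It was 0 with a pseudocount of 10, without a filter, above a mean of 50, after quantile normalization, with ratios over abundant genes, a replicate block or an adjusted p under 0.01. The number called lower was 2 and ran from 0 to 2 (0 without WT1, WT2, WT3 or WT4 and 1 without dyW3). It was 1 with a pseudocount of 10, with voom and without WT1 and dyW1 together, 0 with a mean of at least 50, the same total, quantile normalization, the replicate block or an adjusted p under 0.01, and 3 with ratios over abundant genes.

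Over all tested genes, 259 called higher became 78 to 381 with 1 library left out (78 without WT2 and without WT4), 0 with a mean of at least 50, 1252 with the same total, 22 with quantile normalization, 88 with ratios over abundant genes, 0 with the replicate block, 478 with voom and 17 at an adjusted p under 0.01. The 7625 called lower became 5357 to 10741, and 3095 with a pseudocount of 10, 3, 165 and 2 with a mean of at least 50, quantile normalization and the replicate block, and 4830 at an adjusted p under 0.01. At an unadjusted p under 0.05, 1253 genes passed with a mean of at least 50 and 8843 with the block, in limma. The share called lower among all calls was 96.7%, and 81.0% with the same total.

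Replicates 1 to 3 of both groups share numbers, and same-numbered samples had correlations of deviations of 0.147, −0.049 and −0.088. So few samples cannot exclude that the numbers pair them, and the labels do not say what the numbers mean. Only the replicates numbered 1 correlated best with their own number. With the number as a block, 0 of the 34 genes were called in either direction, and no conclusion is drawn from this.

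Of 597 values of single genes under other settings, 493 kept their direction and side of the threshold, 35 lost a call, 12 gained one and 57 changed sign. With 1 library left out, the genes that changed sign ranged as *Timm17a* −0.64 to 1.81, *Tomm34* −1.17 to 0.26, *Timm10* −1.02 to 1.57, *Timm8a1* −0.023 to 1.74, *Mfn2* −0.76 to 0.0041, *Ppargc1a* −0.59 to 0.41, *Phb2* −0.21 to 0.70, *Chchd3* −0.37 to 0.73, *Tfam* −1.20 to 0.85, *Timm44* −2.74 to 0.13, *Timm23* −0.64 to 1.09 and *Tomm22* −0.14 to 0.70. Sign changes were *Tomm34* 0.71, *Timm17b* 0.39, *Mfn2* 0.75, *Ppargc1a* 1.06, *Immt* 0.57 and *Tfam* 1.04 with the same total, *Tomm34* 0.25, *Mfn2* 0.23, *Ppargc1a* 0.64, *Tfam* 0.78 and *Tomm22* −0.093 with quantile normalization, *Timm10* −0.25, *Mfn1* −0.047, *Phb2* −0.16, *Chchd3* −0.17, *Timm23* −0.057 and *Tomm22* −0.10 with ratios over abundant genes, *Tomm34* 1.04, *Timm17b* 0.35, *Mfn2* 0.71, *Ppargc1a* 0.80, *Immt* 0.77, *Tfam* 1.47 and *Timm44* 0.24 with voom, *Tomm34* 0.66, *Timm10* −0.48, *Timm8a1* −0.32, *Mfn2* 0.21, *Ppargc1a* 0.00069, *Phb2* −0.080 and *Chchd3* −0.0087 without WT1 and dyW1 together, *Tfam* 0.11 with a pseudocount of 10 and *Timm10* −0.018 with the replicate block. The causes were not tested.

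The planned count tests in edgeR and DESeq2 were not run, and voom on the recovered reads took their place. Voom and leaving out WT1 and dyW1 together were chosen after seeing the data. Leaving out 1 library moved the fold of 21 of the 34 genes by over 1.5 times, farthest without dyW2 for 9, dyW3 for 6, dyW1 for 5 and WT1 for 1. A WT library had a median of 5 to 35 reads per gene of the set, and which differences this depth can show was not tested.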
